A study of Mus musculus with 12 samples.

Results

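Integrins and leukocyte adhesion molecules were followed through 10 genes in J774A.1 cells, a mouse macrophage line. They were the integrin subunits Itgal, Itgam, Itgax, Itgb2, Itga4, Itga5, Itgav and Itgb1, the ligand Icam1 and the junctional adhesion molecule F11r, picked by gene name from the 16699 genes that both deposited tables list. F11r was added because its level is lower in ACAT1 KO cells, so its values by genotype are a description and are given with no test. The set and the gene lists below were chosen with earlier results of these data known, so their counts beside all genes are descriptions. All 10 genes passed the filter on low counts in every comparison.

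RNA-seq was done on 4 groups of 3 libraries each, which were WT and ACAT1 KO cells, unstimulated or treated for 2 hr with 100 ng/ml lipopolysaccharide (LPS), a bacterial ligand of TLR4. ACAT1 KO cells received Cas9 with a guide against the 4th exon of Acat1, which encodes a mitochondrial thiolase, and WT cells received the same Cas9-GFP vector without a guide. Sorted GFP-positive cells were plated at 5 per well, because some were expected not to survive the sort or to grow out, and the lines, 3 per genotype, are described as clonal. Each library of a group stands for a line, so p-values between genotypes measure the spread between lines. Same-numbered unstimulated and LPS libraries were taken to be of the same line. The main LPS and interaction tests did not use that pairing and treated all libraries as separate. In bulk RNA fewer cells expressing a gene and less of its RNA per cell cannot be told apart.

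Libraries held 56948593 to 127263834 counts unstimulated and 96704955 to 167280149 counts after LPS. Levels are given as CPM, a gene's counts relative to the library's total after TMM normalization over the 12 libraries. Acat1 itself averaged 98.8 CPM in WT and 26.8 CPM in ACAT1 KO cells unstimulated, and 81.9 and 19.1 CPM after LPS. All 10 macrophage markers were listed, and together they summed to 10950 to 11198 CPM in WT and 11776 to 12870 CPM in ACAT1 KO cells unstimulated and to 8326 to 8722 and 8796 to 9732 CPM after LPS. Markers of other cell types were low, and of the T cell list 2 of 6 genes were listed (5.93 to 10.0 CPM in sum, Cd3d, Cd3e and Cd3g not listed), of the B cell list 1 of 5 (at most 0.826 CPM), and of the natural killer and epithelial lists none. Neutrophil, dendritic and endothelial lists summed to 1.94 to 6.25 CPM, and the fibroblast list to 1.24 to 1.88 CPM unstimulated and, after LPS, to 4.95 to 5.98 CPM in WT and 10.3 to 12.2 CPM in ACAT1 KO cells. The part of these in the results was not tested. Unstimulated WT lines 1 and 2 and ACAT1 KO line 2 stood apart, since 51 noncoding genes lying wholly inside opposite-strand exons took 0.0144%, 0.0175% and 0.0205% of their counts. The same share was 0.00346% to 0.00432% in the 9 remaining libraries. WT line 3 was thus the only unstimulated WT line without this rise, and leaving it out keeps only unstimulated WT lines with it.

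Integrins are surface receptors made of an alpha and a beta chain. The beta 2 chain pairs in leukocytes with alpha L (CD11a), alpha M (CD11b) or alpha X (CD11c), receptors that bind ICAM-1 or complement-coated particles, while the beta 1 chain pairs with alpha 4, alpha 5 or alpha v to bind VCAM-1, fibronectin and other matrix proteins. Inside signals switch integrins from a bent to an extended shape through talin and kindlin, and bound integrins connect to actin through adaptors such as vinculin. ICAM-1 is a textbook NF-kB target in inflamed tissue, and F11r encodes JAM-A, a tight junction protein that is also found on leukocytes.

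The promoters of Icam1, Itga5, Itgav and F11r are shown because the first 3 genes had the largest LPS changes among the members and F11r the largest difference between genotypes. For the first 3 they are the 250 bases just upstream of the start of each gene in RefSeq on GRCm38.p6. For F11r they are 224 bases that end just before the start of its annotated exons (171437535), which lies upstream of its RefSeq start. All are written 5′ to 3′ on the gene's own strand, with motif matches in capitals. The window ends at 21015939 for Icam1 (chr9:21015690-21015939, plus strand), at 103366792 for Itga5 (chr15:103366792-103367041, minus strand), at 83724396 for Itgav (chr2:83724147-83724396, plus strand) and at 171437534 for F11r (chr1:171437311-171437534, plus strand).
Icam1: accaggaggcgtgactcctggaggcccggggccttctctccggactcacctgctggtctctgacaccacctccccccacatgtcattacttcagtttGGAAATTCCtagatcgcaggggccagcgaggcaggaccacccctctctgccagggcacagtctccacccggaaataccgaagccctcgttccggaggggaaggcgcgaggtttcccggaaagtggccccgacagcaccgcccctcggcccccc
Itga5: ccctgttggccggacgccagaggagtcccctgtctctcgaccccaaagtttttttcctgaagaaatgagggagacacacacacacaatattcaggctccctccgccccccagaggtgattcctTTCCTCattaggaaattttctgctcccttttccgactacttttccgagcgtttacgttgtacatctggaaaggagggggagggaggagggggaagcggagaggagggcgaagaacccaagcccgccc
Itgav: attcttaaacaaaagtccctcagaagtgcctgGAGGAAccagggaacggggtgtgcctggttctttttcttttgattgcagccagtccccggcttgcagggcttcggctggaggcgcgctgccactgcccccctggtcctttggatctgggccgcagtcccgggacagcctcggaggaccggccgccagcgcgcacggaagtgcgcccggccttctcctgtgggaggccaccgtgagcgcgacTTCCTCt
F11r: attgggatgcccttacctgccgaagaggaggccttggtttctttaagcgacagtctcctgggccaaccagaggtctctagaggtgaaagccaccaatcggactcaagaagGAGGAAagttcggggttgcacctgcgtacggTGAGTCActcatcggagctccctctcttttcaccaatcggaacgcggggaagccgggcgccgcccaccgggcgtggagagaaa

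Both strands were searched for GGAANTTCC, an NF-kB site of the Icam1 type, for TGANTCA, the AP-1 site, for GAGGAA, the core bound by the macrophage factor PU.1, and for the NF-kB consensus. Icam1 held the only GGAANTTCC among the 8 members with a promoter in the table, 153 to 145 bases upstream, and 0.813% of 32851 mouse promoters hold that motif in the same 250 upstream bases. The AP-1 site was in F11r, 83 to 77 bases upstream of its annotated start, and in Itgax, 2 of 8 members against 6.75% of all promoters. GAGGAA was in 5 of 8 members (F11r, Itga5, Itgam, Itgav and Itgb1) against 23.3% of all promoters, and the NF-kB consensus was in 0 of 8 against 7.25%. No matches overlapped each other, and a match describes letters only. Itgal and Itgb2 are named only.

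The members spread over 7 chromosomes of GRCm38. Itgal (127296260 to 127335138), Itgam (128062640 to 128118491) and Itgax (128129547 to 128150657) share a stretch of chromosome 7, and Itga4 (79255426 to 79333123) and Itgav (83724397 to 83806916) lie on chromosome 2. Itgb2 is on chromosome 10, Itga5 on 15, Itgb1 on 8, Icam1 on 9 and F11r on 1. Exons of Icam1, Itga4 and Itgav overlap genes of the other strand over 11.7%, 8.04% and 5.90% of their length. The library kit was directional, but whether counting used the strand is not given in the sources used here, so reads of those stretches may belong to either gene.

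LPS raised most of these genes in both genotypes. At an adjusted p under 0.05 by the quasi-likelihood test of edgeR, 7 of 10 members rose and 0 fell in WT cells, where 57.4% of the 16535 genes tested were called, 29.3% higher and 28% lower. In ACAT1 KO cells 7 of 10 also rose and 0 fell, against 60.7% of all genes called, 29.5% higher and 31.2% lower. The same 7 genes were called in both, namely Icam1, Itga5, Itgav, F11r, Itgal, Itga4 and Itgb1, and at an unadjusted p under 0.05 the count was also 7 of 10 in each genotype, against 61.5% and 64.7% of all genes. LPS and unstimulated libraries did not overlap for 7 of 10 members in WT and 7 of 10 in ACAT1 KO cells, against 60.5% and 67.2% of all genes. With upper-quartile normalization the median log2 change of all genes was -0.226 in WT and -0.175 in ACAT1 KO cells, against -0.018 and -0.026 with TMM. The calls shifted from 4850 higher and 4638 lower to 3628 and 6681 in WT cells. In ACAT1 KO cells they shifted from 4871 and 5166 to 3921 and 6560. The log2 changes of Icam1, Itga5 and Itgav exceed that shift of the median many times over. Those of Itgb1 became -0.01 in WT and 0.05 in ACAT1 KO cells.

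**Figure D1:**
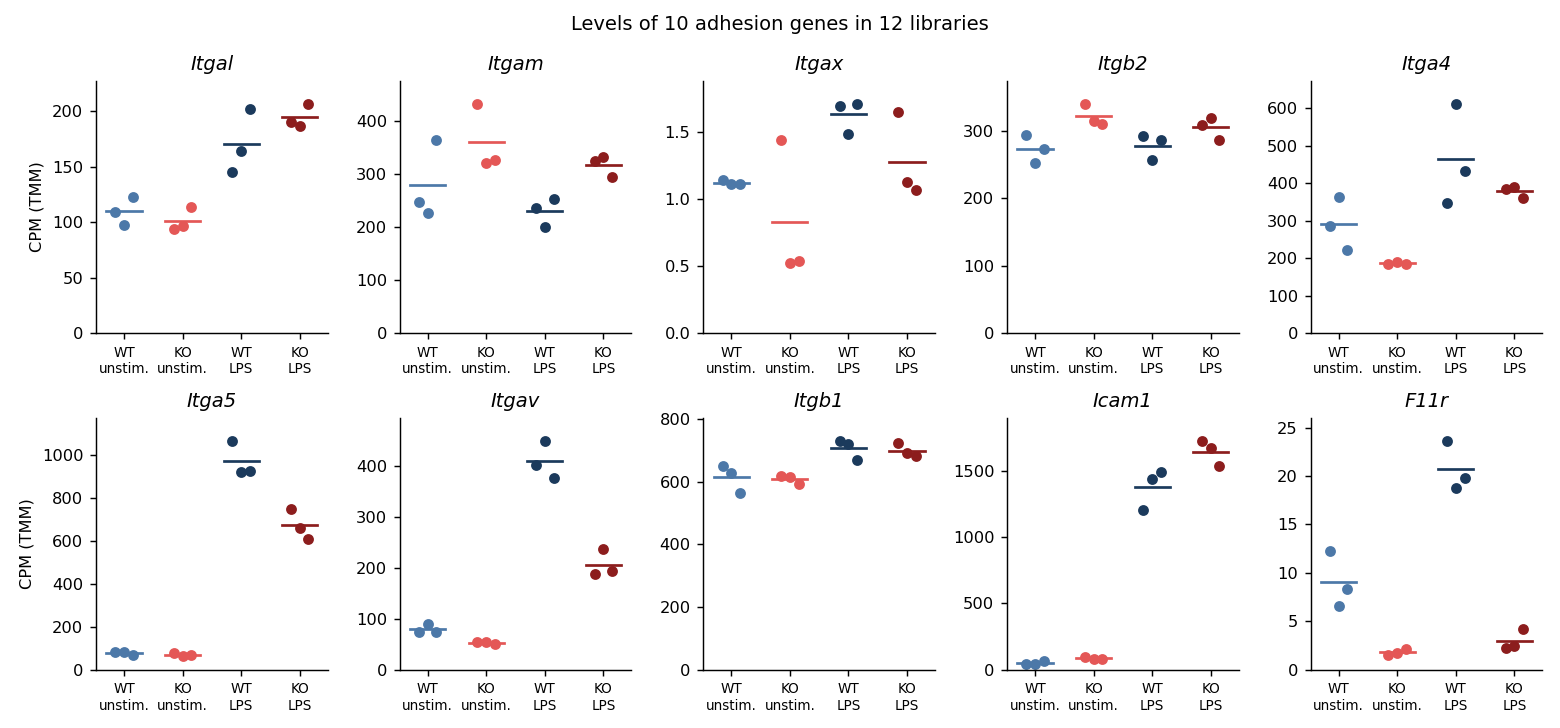
CPM after TMM normalization (y axis, from 0, its own scale for each gene) of the 10 genes in the 4 groups (x axis), with a point for each of the 3 libraries of a group and a line at their mean. Icam1, Itga5 and Itgav lie far above their unstimulated levels in all 6 LPS libraries, and F11r is low in all 6 ACAT1 KO libraries.

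Icam1, the ligand that beta 2 integrins bind on neighbouring cells, had the largest response of the members. WT lines 1 to 3 held 42.6, 44.5 and 62.4 CPM unstimulated and 1203, 1436 and 1492 CPM after LPS. ACAT1 KO lines held 97.9, 77.6 and 81.3 CPM unstimulated and 1726, 1669 and 1537 CPM after LPS. Every ACAT1 KO library lay above every WT library in both states, and every LPS library lay far above all unstimulated ones. The rise with LPS was 27.6-fold in WT (log2 4.79, standard error 0.17, adjusted p = 9.81e-10) and 19.2-fold in ACAT1 KO cells (log2 4.26, standard error 0.16, adjusted p = 1.45e-09).

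Although the groups did not overlap, the excess of Icam1 in ACAT1 KO cells missed the adjusted threshold. It was 1.73-fold unstimulated (log2 0.79, standard error 0.16, adjusted p = 0.0686 by edgeR) and 1.21-fold after LPS (log2 0.28, standard error 0.09, adjusted p = 0.0809). Without unstimulated WT line 3 the unstimulated difference passed at an adjusted p of 0.0255 by edgeR. That library had the highest Icam1 of unstimulated WT cells and was the only one of them without more other-strand counts. Over all alternatives the adjusted p of the unstimulated difference ran from 3.77e-05 (DESeq2) to 0.221. Within the libraries with more other-strand counts (2 WT, 1 ACAT1 KO) the log2 ratio was 0.84, and within the others (1 WT, 2 ACAT1 KO) it was 0.52. Gm47079, which overlaps Icam1 on the other strand, held 1.26, 1.81 and 3.40 CPM in those 3 libraries and at most 0.0629 CPM in the other unstimulated ones.

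Itga5, the alpha chain of the main fibronectin receptor, rose next most. Its level in WT lines was 84.1, 80.5 and 70.2 CPM unstimulated and 1069, 925 and 929 CPM after LPS. In ACAT1 KO lines it was 79.1, 62.5 and 69.2 CPM unstimulated and 749, 661 and 611 CPM after LPS. The genotypes overlapped unstimulated and separated after LPS, with all ACAT1 KO libraries lower. LPS raised Itga5 12.5-fold in WT (log2 3.64, standard error 0.12, adjusted p = 6.47e-10) and 9.58-fold in ACAT1 KO cells (log2 3.26, standard error 0.12, adjusted p = 8.76e-10).

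Itgav, the alpha chain shared by several matrix and latent TGF-beta receptors, behaved alike in direction and was lower in ACAT1 KO cells in both states. WT lines gave 74.2, 90.7 and 74.9 CPM unstimulated and 404, 451 and 378 CPM after LPS, and ACAT1 KO lines gave 53.7, 53.8 and 50.9 CPM and then 188, 237 and 195 CPM. No ACAT1 KO library reached the lowest WT library of its state. The rise with LPS was 5.14-fold in WT (log2 2.36, standard error 0.11, adjusted p = 7.89e-09) and 3.91-fold in ACAT1 KO cells (log2 1.97, standard error 0.11, adjusted p = 2.45e-08).

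Itga4, whose product pairs with beta 1 to bind VCAM-1 or with beta 7 to bind MAdCAM-1, rose less. WT libraries held 286, 362 and 222 CPM unstimulated and 346, 611 and 433 CPM after LPS, so that the states overlapped. ACAT1 KO libraries held 185, 190.5 and 184 CPM unstimulated and 384, 390.4 and 360 CPM after LPS, well apart and with little spread. The change was 1.60-fold in WT (log2 0.68, standard error 0.19, adjusted p = 0.00974, or 0.0548 with upper-quartile normalization, and log2 0.43 without LPS WT line 2) and 2.03-fold in ACAT1 KO cells (log2 1.02, standard error 0.19, adjusted p = 6.32e-04). Cerkl, which overlaps Itga4 on the other strand, stood at 6.90, 13.1 and 9.93 CPM in the unstimulated libraries with more other-strand counts and at 3.27 to 3.89 CPM in the other unstimulated ones.

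Itgb1, the beta chain shared by alpha 4, alpha 5 and alpha v, changed little. Levels in WT lines were 650.1, 628 and 565 CPM unstimulated and 731, 721 and 670.4 CPM after LPS, and in ACAT1 KO lines 619, 614 and 592 CPM and then 722, 691 and 682 CPM. The LPS libraries lay above the unstimulated ones in both genotypes, by 1.15-fold in WT (log2 0.20, standard error 0.06, adjusted p = 0.0177) and by 1.15-fold in ACAT1 KO cells (log2 0.20, standard error 0.06, adjusted p = 0.0187), but with upper-quartile normalization the log2 change was -0.01 in WT and 0.05 in ACAT1 KO cells, neither of them called, and with offsets for length and GC content it was 0.08 and 0.10 (adjusted p = 0.39 and 0.309). Leaving out a library also ended the call, in WT for LPS line 1, LPS line 2 or unstimulated line 3 (adjusted p = 0.0604, 0.0552 and 0.0688) and in ACAT1 KO cells for LPS line 1 or unstimulated line 3 (adjusted p = 0.0687 and 0.0663).

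Per kilobase of exon, the sum of Itga4, Itga5 and Itgav was below Itgb1 unstimulated and at or above it after LPS. That sum leaves out other alpha chains measured, such as Itga6, Itga8 and Itga9. It also sets all of Itga4 and Itgav against Itgb1, although Itgb7 is another partner of Itga4 and Itgb5 another of Itgav. Itgb5 averaged 164 CPM in WT and 138 CPM in ACAT1 KO cells unstimulated, and 124 and 105 CPM after LPS. The values below compare RNA levels of these genes only, and the balance of protein partners was not tested. The ratio of the 3 alpha chains to Itgb1 was 0.292 ± 0.0328 (SD, n = 3) in WT and 0.218 ± 0.00901 in ACAT1 KO cells unstimulated, and 1.55 ± 0.00643 and 1.07 ± 0.0560 after LPS. The 3 partners of Itgb2 behaved otherwise, with a ratio to Itgb2 of 0.812 ± 0.182 in WT and 0.827 ± 0.0709 in ACAT1 KO cells unstimulated, and 0.791 ± 0.0732 and 0.932 ± 0.0277 after LPS.

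The beta 2 family changed in make-up more than in amount. Itgb2, the beta chain whose loss causes leukocyte adhesion deficiency, held 294, 253 and 273 CPM in WT lines unstimulated and 292, 256 and 286 CPM after LPS. ACAT1 KO lines held 340.0, 315 and 310 CPM unstimulated and 309, 320 and 287 CPM after LPS. The states overlapped in both genotypes, with log2 changes of 0.03 (standard error 0.08, adjusted p = 0.801) in WT and -0.07 (standard error 0.08, adjusted p = 0.415) in ACAT1 KO cells.

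Itgal, the alpha chain of LFA-1, rose with LPS. WT libraries went from 109, 97.9 and 122 CPM to 145, 164 and 202 CPM, and ACAT1 KO libraries from 94.3, 96.3 and 113 CPM to 190.3, 186 and 207 CPM. LPS and unstimulated libraries did not overlap in either genotype, and the rise was 1.55-fold in WT (log2 0.63, standard error 0.12, adjusted p = 7.97e-04) and 1.92-fold in ACAT1 KO cells (log2 0.94, standard error 0.12, adjusted p = 3.32e-05). Without the 3 libraries that stood apart, which leaves only line 3 of unstimulated WT cells, the log2 change in WT was 0.45.

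Itgam, the alpha chain of complement receptor Mac-1 and a common macrophage marker, did not pass the test for LPS. WT lines held 248, 227 and 364 CPM unstimulated and 237, 201 and 254 CPM after LPS, and ACAT1 KO lines held 432, 322 and 327 CPM and then 325, 333 and 294 CPM. The states overlapped, with log2 changes of -0.28 (standard error 0.17, adjusted p = 0.181) in WT and -0.18 (standard error 0.17, adjusted p = 0.369) in ACAT1 KO cells. Without unstimulated WT line 3 the change was -0.04 in WT cells, and without unstimulated ACAT1 KO line 1 it was -0.03 in ACAT1 KO cells. With a term for the 3 libraries with more other-strand counts, Itgam was called lower after LPS, with log2 changes of -0.54 in WT (adjusted p = 0.00742) and -0.32 in ACAT1 KO cells (adjusted p = 0.0446).

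Itgax, the alpha chain used to mark dendritic cells, was barely expressed. It stood at 1.15, 1.11 and 1.12 CPM in WT lines unstimulated and 1.70, 1.49 and 1.71 CPM after LPS, and at 1.44, 0.522 and 0.537 CPM in ACAT1 KO lines and then 1.65, 1.13 and 1.07 CPM. ACAT1 KO line 1 was the highest of its genotype in both states and within the range of WT cells or above it. The log2 change with LPS was 0.54 in WT (standard error 0.34, adjusted p = 0.199) and 0.61 in ACAT1 KO cells (standard error 0.34, adjusted p = 0.14). With the line as a block the adjusted p was 0.0424 and 0.0105, and without unstimulated ACAT1 KO line 1 it was 0.0261 and 4.19e-04, the log2 change in ACAT1 KO cells then being 1.27.

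Itgal took a larger share of the beta 2 partners after LPS. Of the summed CPM per kilobase of Itgal, Itgam and Itgax in WT lines, Itgal made up 25.2%, 24.7% and 20.4% unstimulated and 31.7%, 38.3% and 37.7% after LPS. In ACAT1 KO lines it made up 14.2%, 18.6% and 21.0% and then 30.8%, 29.9% and 34.9%. The LPS libraries were all above the unstimulated ones, by 12.5 percentage points in WT and 13.9 in ACAT1 KO cells. An exact permutation test within genotypes gave p = 0.005 over 6 LPS against 6 unstimulated libraries, the smallest p its 400 arrangements allow (0.0075 adjusted over the 3 chains, two-sided). With the line as the unit, the share was higher after LPS in 6 of 6 lines, by 6.54 to 17.3 percentage points, and flipping signs over lines gave an exact p of 0.0312, the smallest its 64 arrangements allow. Since Itgax took under 1%, the share of Itgam is nearly the remainder and is given without a test, with a mean difference of -13.3 percentage points. Within a genotype, 3 against 3 libraries cannot go below p = 0.1, and the difference in the share of Itgal between ACAT1 KO and WT cells, -5.48 percentage points unstimulated and -4.04 after LPS, gave exact p = 0.2 in either state.

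**Figure D2:**
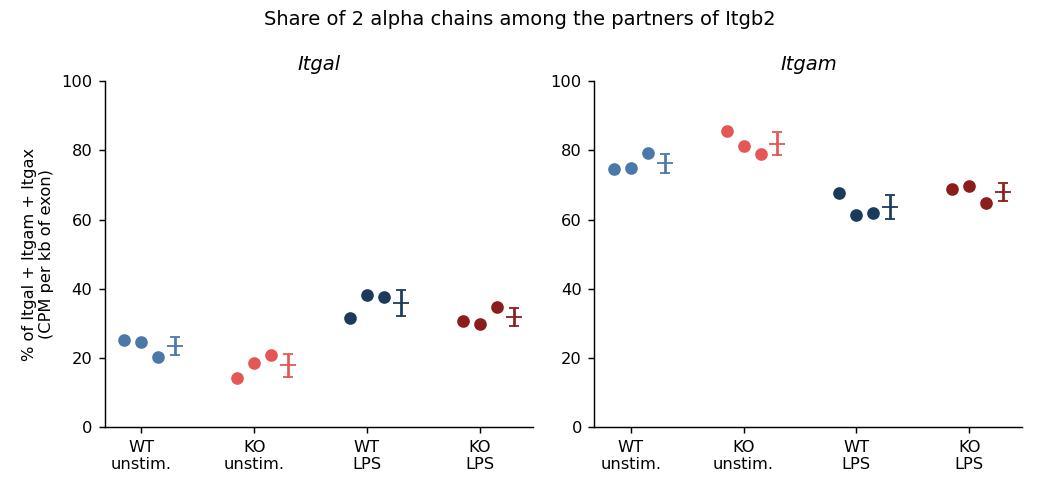
Share (y axis, percent) of Itgal (left) and Itgam (right) in the summed CPM per kilobase of exon of Itgal, Itgam and Itgax, by group (x axis), with a point for each library and the mean ± SD of 3 libraries beside them. Itgal averages 23.4% and 17.9% in unstimulated WT and ACAT1 KO cells and 35.9% and 31.9% after LPS, and Itgam goes the opposite way.

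F11r, which encodes JAM-A, was a weakly expressed member. WT lines held 12.3, 6.61 and 8.37 CPM unstimulated and 23.6, 18.8 and 19.7 CPM after LPS. ACAT1 KO lines held 1.47, 1.73 and 2.15 CPM unstimulated and 2.25, 2.41 and 4.23 CPM after LPS. All 6 ACAT1 KO libraries lay below all 6 WT libraries, whatever the state. The level in ACAT1 KO cells was 5.06-fold lower unstimulated (log2 -2.34) and 6.86-fold lower after LPS (log2 -2.78), values that brought the gene into the set. The unstimulated log2 ratio was -2.45 within the libraries with more other-strand counts (2 WT, 1 ACAT1 KO). It was -2.21 within the others (1 WT, 2 ACAT1 KO). This splits the values that chose the gene and is no check on them.

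LPS raised F11r 2.28-fold in WT cells (log2 1.19, standard error 0.26, adjusted p = 0.00208 by edgeR), with all LPS libraries above the unstimulated ones. In ACAT1 KO cells the rise was 1.67-fold (log2 0.74, standard error 0.27, adjusted p = 0.0347). There the call was lost without LPS line 3 (log2 0.39, adjusted p = 0.202), without unstimulated line 1 (adjusted p = 0.114) and without unstimulated line 2 (adjusted p = 0.0739), as well as with limma-voom (adjusted p = 0.0711), with upper-quartile normalization (0.0827) and with the 6 ACAT1 KO libraries alone (0.0511). Over the 12 libraries and 11960 genes, the log2 CPM of Nemf, Ppp2r5e and C77080 followed F11r most closely, with Pearson's r of 0.965, 0.964 and 0.963. C77080 had means of 25.7 CPM in WT and 6.91 CPM in ACAT1 KO cells unstimulated and 54.8 and 9.59 CPM after LPS, while Nemf went from 69.0 and 52.1 CPM to 80.5 and 60.8 CPM. For Icam1 the nearest were Fam122a, Ythdf1 and Pigv, with r of 0.998, 0.997 and 0.997. These libraries share lines and treatment, so the correlations describe the group pattern only.

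**Figure D3:**
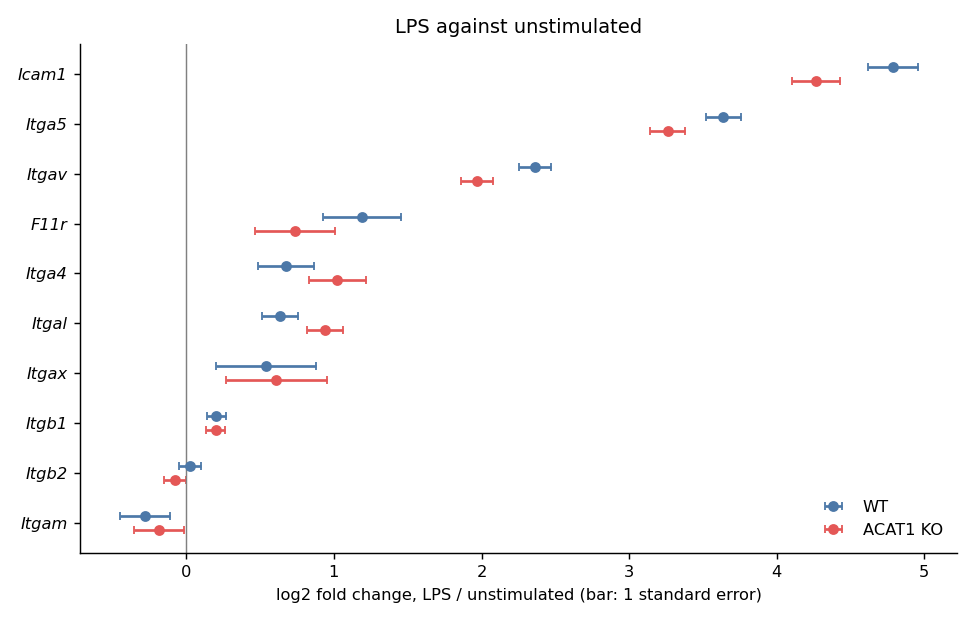
Log2 fold change of LPS over unstimulated cells (x axis) for each gene (y axis) in WT and ACAT1 KO cells, with bars of 1 standard error from the edgeR fit of 12 libraries. Icam1, Itga5 and Itgav have the largest changes, from 1.97 to 4.79, and Itgb1, Itgb2 and Itgam lie closest to 0.

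Whether a response differed between genotypes was tested by the interaction, which called 0 of the 9 members tested and 0.187% of all genes, 0.0484% higher and 0.139% lower. Before adjustment, 3 of the 9 had a p under 0.05, against 8.92% of all genes, each with a smaller LPS change in ACAT1 KO cells. The difference in log2 change was -0.52 for Icam1 (standard error 0.20, adjusted p = 0.432), -0.39 for Itgav (standard error 0.15, adjusted p = 0.412) and -0.38 for Itga5 (standard error 0.15, adjusted p = 0.465). With the line as a block 288 genes were called in place of 31, still with 0 members, and the adjusted p was 0.0787, 0.0868 and 0.0902. Over the alternatives that kept all 12 libraries, the adjusted p of Icam1 ran from 0.0213, with that block and the other-strand term together, to 0.544. Without the 3 libraries that stood apart, which leaves only line 3 of unstimulated WT cells, the difference was -0.23. For F11r the difference was -0.45, given as a description.

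Between genotypes, Itgav was lower in both states and Itga5 lower and Itgam higher after LPS in ACAT1 KO cells. Unstimulated, 1 of the 9 members tested passed, Itgav, against 1.91% of all genes (0.742% higher, 1.17% lower). There were 4 of 9 at an unadjusted p under 0.05, against 19.7%, and the genotypes did not overlap for 4 of 9, against 25.3%. After LPS these 3 genes passed, 3 of 9 members against 15.1% of all genes (5.93% higher, 9.12% lower). There were 4 of 9 at an unadjusted p under 0.05, against 31.3%, and the genotypes did not overlap for 4 of 9, against 36.7%.

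**Figure D4:**
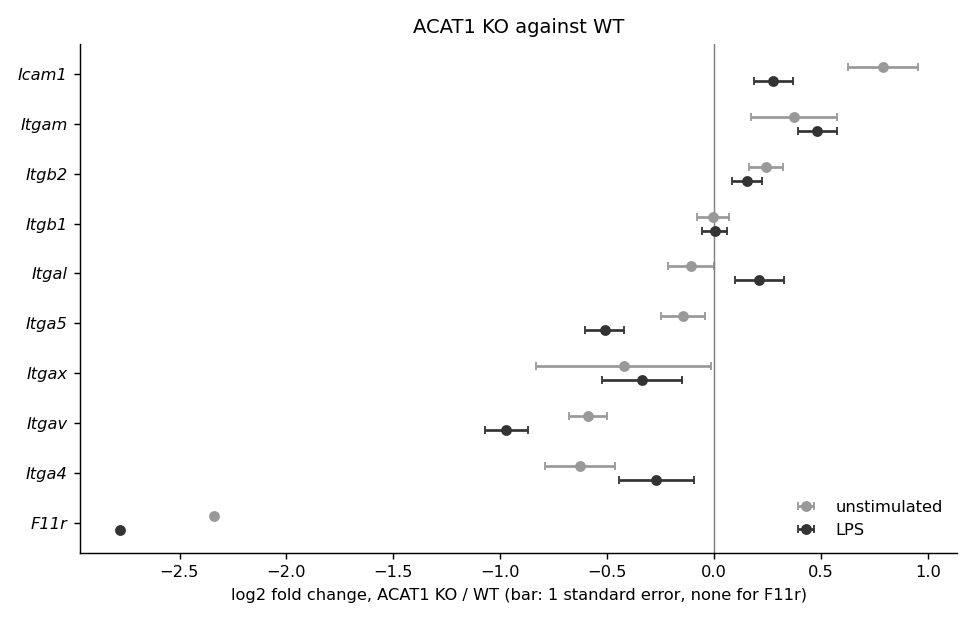
Log2 fold change of ACAT1 KO over WT cells (x axis) for each gene (y axis), unstimulated and after LPS, with bars of 1 standard error from the edgeR fit of the 6 libraries of a state (none for F11r, which was chosen for this difference). Itgav lies below 0 in both states at -0.59 and -0.97, F11r lies lowest, and Itgb1 lies at 0.

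Itgav was 1.5-fold lower in ACAT1 KO cells unstimulated (log2 -0.59, standard error 0.09, adjusted p = 0.039) and 1.96-fold lower after LPS (log2 -0.97, standard error 0.10, adjusted p = 0.00268). The difference after LPS was called in every alternative, with an adjusted p of at most 0.0139. The unstimulated call was lost in 5 of the 6 fits that left out a library. It held only without WT line 3, the only unstimulated WT line without more other-strand counts. Over these fits the adjusted p ran from 0.0331 to 0.152 and the log2 change from -0.65 to -0.49. Within the libraries with and without more other-strand counts the unstimulated log2 ratio was -0.62 and -0.52.

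Itga5 was 1.43-fold lower in ACAT1 KO cells after LPS (log2 -0.51, standard error 0.09, adjusted p = 0.0116), a call lost without LPS ACAT1 KO line 2 (adjusted p = 0.0523), and its unstimulated log2 difference was -0.15 (standard error 0.10, adjusted p = 0.504). Itgam was 1.40-fold higher after LPS (log2 0.48, standard error 0.09, adjusted p = 0.0147), with every ACAT1 KO library above every WT library, as for the sum of the macrophage markers. That call was lost without LPS ACAT1 KO line 1 or 2 (adjusted p = 0.0534 and 0.0594) and when all 12 libraries shared a fit (adjusted p = 0.0975). Unstimulated, the log2 difference of Itgam was 0.37 (standard error 0.20, adjusted p = 0.363), or 0.44 and 0.06 within the libraries with and without more other-strand counts.

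Itga4 lay lower in all ACAT1 KO libraries unstimulated, by log2 -0.63 (standard error 0.16, adjusted p = 0.106), and overlapped after LPS (log2 -0.27, standard error 0.18, adjusted p = 0.335, or log2 -0.02 without LPS WT line 2). The unstimulated log2 ratio was -0.76 and -0.27 within the libraries with and without more other-strand counts. Without WT line 3, the only unstimulated WT line without such counts, the adjusted p was 0.0305. Itgb2 lay higher in all ACAT1 KO libraries unstimulated, by log2 0.24 (standard error 0.08, adjusted p = 0.161). Itgb1 gave log2 differences of -0.01 (standard error 0.07, adjusted p = 0.981) unstimulated and 0.00 (standard error 0.06, adjusted p = 0.987) after LPS. Itgal differed by log2 0.21 after LPS (standard error 0.12, adjusted p = 0.254, or 0.0322 without LPS WT line 3).

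Compared per kilobase of exon, the order of the members changed with LPS. Unstimulated WT cells had most Itgb1 (150.5 ± 10.8 CPM per kilobase, SD, n = 3), then Itgb2 (89.5 ± 6.81), then Itgam (55.7 ± 14.7). Itga4, Itgal, Itga5 and Icam1 followed, from 20.7 to 11.4 CPM per kilobase, and neighbours in that run overlapped. Itgav (7.44), F11r (3.41) and Itgax (0.234) closed the order without overlap. After LPS Icam1 led in WT cells (316 ± 35.2), followed by Itga5 (198 ± 16.7), Itgb1 (173 ± 8.0) and Itgb2 (91.2 ± 6.25), none of them overlapping its neighbour. Ranges of Itgam, Itgav, Itga4 and Itgal overlapped from neighbour to neighbour, from 45.9 to 25.9 CPM per kilobase.

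In ACAT1 KO cells the order after LPS was Icam1 (377 ± 22.3), Itgb1 (171 ± 5.16), Itga5 (137 ± 14.1) and Itgb2 (100.0 ± 5.50), so that Itga5 stood below Itgb1 and not above it as in WT cells. Itgav was 8th in ACAT1 KO cells after LPS (19.2 ± 2.50) and 6th in WT cells (38.2 ± 3.44), overlapping there with Itgam and Itga4.

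Other integrin subunits made a list of 19 genes, of which 10 were listed unstimulated and 12 after LPS. Itgb3 and Itgb8, listed only after LPS, could not be tested for LPS or counted as raised. The same held for Vcam1 and Fbn1 of the lists below. The 10 genes listed in both states were tested for LPS. Of these, 2 rose and 3 fell in WT cells, against 57.4% of all genes called (median log2 change -0.27, against -0.02 over all genes), and 1 rose and 5 fell in ACAT1 KO cells, against 60.7% (median -0.28, against -0.03). Itga6, a laminin receptor chain, fell from 33.0 to 17.0 CPM in WT (log2 -0.95, standard error 0.07, adjusted p = 2.37e-07), and Itgb5, a partner of Itgav, fell from 164 to 124 CPM (log2 -0.40, adjusted p = 1.86e-04). Itga8 fell by 0.62 on the log2 scale (adjusted p = 4.06e-04), and Itga7, at 0.0747 CPM unstimulated, rose to 0.197 CPM (log2 1.36, adjusted p = 0.00743).

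By genotype, 2 of 9 genes of that list were lower unstimulated, against 1.91% of all genes called, Itga6 (log2 -0.67, adjusted p = 0.0199) and Itgb7 (log2 -1.87, adjusted p = 0.0302). After LPS 4 of 12 were lower (Itga6, Itga7, Itgb5 and Itgb7) and Itgb4 was higher (log2 1.38, adjusted p = 0.0223), against 15.1% of all genes called. Itgb4 was barely expressed, with means of 0.219 CPM in WT and 0.560 CPM in ACAT1 KO cells after LPS. Itgb7, the other beta partner of alpha 4, is given in full, a choice made after its values were seen. WT lines held 4.30, 2.79 and 3.85 CPM unstimulated and 3.97, 2.88 and 3.0 CPM after LPS, and ACAT1 KO lines held 0.796, 0.990 and 1.18 CPM and then 0.559, 0.617 and 0.704 CPM. All ACAT1 KO libraries lay below all WT libraries in both states, and the log2 difference after LPS was -2.36 (adjusted p = 0.00128). The 5 calls after LPS became 2 without LPS ACAT1 KO line 1 or 3 or WT line 3, and 3 without ACAT1 KO line 2 or WT line 2.

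Genes of integrin activation and the adhesion complex, which join integrins to actin and to kinases, were called about as often as other genes with LPS. Of 27 tested, 11 rose and 5 fell in WT cells (median log2 change 0.11), against 57.4% of all genes called, and 9 rose and 7 fell in ACAT1 KO cells (median 0.07), against 60.7%. Vcl, which encodes vinculin, rose from 30.4 to 137 CPM in WT and from 21.8 to 69.4 CPM in ACAT1 KO cells (log2 2.17 and 1.67, adjusted p = 4.06e-07 and 2.93e-06). Syk, a kinase downstream of beta 2 integrins, rose by log2 1.52 and 1.40, Rap1b, a GTPase that activates integrins, by 1.06 and 0.79, and the adaptor Bcar1, at 0.311 CPM unstimulated in WT, by 3.23 and 1.54, with adjusted p of at most 2.45e-04 in all 6 tests.

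After LPS 9 of these 27 genes were lower and 0 higher in ACAT1 KO cells (median log2 difference -0.14, against -0.00 over all genes), beside the 9.12% of all genes called lower. They were Vcl (log2 -0.96, adjusted p = 0.0071), Bcar1 (-1.15, adjusted p = 0.0125), Syk (-0.49, adjusted p = 0.0261), Rap1b (-0.34, adjusted p = 0.019), Tln1, Pxn, Zyx, Ptk2 and Parvb. Without LPS ACAT1 KO line 1, 2 or 3 the count was 5, 4 and 5. Unstimulated, Fyb alone of the 27 was called (log2 -0.44, adjusted p = 0.0403), a gene chosen for mention after its value was seen, and the count became 7 with DESeq2, 4 when all 12 libraries shared a fit and 0 with length and GC offsets. The interaction called 0 of 27, and with the line as a block it called Bcar1 (-1.68, adjusted p = 0.0165) and Parvb (-0.39, adjusted p = 0.027).

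Other leukocyte adhesion molecules gave 11 genes higher and 5 lower of 22 tested in WT cells after LPS (median log2 change 0.26), against 57.4% of all genes called, and 10 higher and 9 lower in ACAT1 KO cells (median 0.44), against 60.7%. Cd44, the hyaluronan receptor, rose from 251 to 1540 CPM in WT and from 342 to 1975 CPM in ACAT1 KO cells (log2 2.62 and 2.53, adjusted p = 1.23e-09 and 1.29e-09). Pvr, a nectin-like ligand, rose by log2 2.12 and 2.31, and Plaur, the urokinase receptor, by 2.40 and 1.75. Icam5 went from 0.0725 to 0.940 CPM in WT cells (log2 3.66, adjusted p = 1.68e-07), well under Icam1 in counts.

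After LPS, 4 of 23 of these genes were higher in ACAT1 KO cells (Cd44 by log2 0.38, Pvr by 0.40, Sirpa by 0.47 and Nectin2 by 0.69) and 2 were lower (Plaur, log2 -0.47, and Adam8, log2 -0.40), with adjusted p of at most 0.0379, where 5.93% of all genes were called higher and 9.12% lower. Unstimulated, Sirpa alone of 21 was called (log2 0.45, adjusted p = 0.0455). Nectin2, Sirpa and Adam8 were named after their values were seen. The 6 calls after LPS became 2 without LPS ACAT1 KO line 1, and 3 without ACAT1 KO line 2 or WT line 2. With the line as a block the interaction called Plaur (-0.66, adjusted p = 0.0147) and Adam8 (-0.56, adjusted p = 0.0268).

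Extracellular integrin ligands, 12 of them tested, gave 3 higher and 3 lower genes in WT cells after LPS (median log2 change 0.10), against 57.4% of all genes called, and 4 higher and 2 lower in ACAT1 KO cells (median 0.04), against 60.7%. The laminin chain Lamc1 rose from 110.1 to 394 CPM in WT (log2 1.84, adjusted p = 6.84e-09). Col4a2, a collagen IV chain, and Tgfb2 rose by log2 3.28 and 2.03 from 0.437 and 0.323 CPM, and Adam9 fell by 0.24 on the log2 scale. Col4a1, the other collagen IV chain listed, did not rise (log2 -0.76, adjusted p = 0.031 in WT, and -0.49, adjusted p = 0.139 in ACAT1 KO cells). It was not called between genotypes after LPS (log2 -0.08, adjusted p = 0.88) and was named after its values were seen. In ACAT1 KO cells Mfge8, an alpha v ligand on dying cells, was lower in both states (log2 -0.48, adjusted p = 0.039 unstimulated, and -0.51, adjusted p = 0.0158 after LPS), named after its values were seen. Lamc1 was lower (log2 -0.30, adjusted p = 0.0149) and Col4a2 higher (log2 0.57, adjusted p = 0.0237) after LPS, 3 of 13 genes called in all against 15.1% of all genes, which became 0 without LPS ACAT1 KO line 1 and 1 without ACAT1 KO line 2 or WT line 2. Across the 4 gene lists, the unstimulated calls of 2, 1, 1 and 1 genes became 0 in each list without ACAT1 KO line 1, 2 or 3 or WT line 2, and without WT line 1 they became 1, 0, 0 and 0. Without WT line 3 they were 2, 3, 1 and 2.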

How the data were processed

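RNA-seq libraries of WT and ACAT1 KO J774A.1 lines, unstimulated or after LPS, were grouped by the genotype, treatment and number in their labels. Per the labels, the authors used Trimmomatic 0.33 for read trimming, HISAT2 for alignment to GRCm38 and StringTie for quantification. The counts they deposited, in a table per state, are whole numbers and not normalized. The tool that gave whole counts is not given in the sources used here. The tables also hold the authors' fold changes and p-values and 12 columns of log2 values, none of them used. Every gene listed reaches 4 counts in 5 or more of the 6 libraries of its table, so a gene silent in a genotype or a state can be missing. LPS and interaction tests cover only genes listed in both states, so a gene listed after LPS alone could not be called raised. After 59 and 57 repeated entries were removed, 17544 and 17874 genes remained.

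Counts were filtered by filterByExpr, normalized by TMM and tested with edgeR 4.0.16 in R 4.3.3 (quasi-likelihood, two-sided, Benjamini-Hochberg over all genes tested). The LPS changes and the interaction came from a fit of 12 libraries, and the genotype differences from the 6 libraries of a state (16440 and 16483 genes tested). The code was tested on simulated counts. There it missed many of the smaller changes, most often in the interaction, and was judged on changes large against their error, a criterion set after earlier ones were not met. Fold changes are from the fits. Each standard error is the absolute log2 change divided by the square root of the F statistic of the quasi-likelihood test. Log2 CPM used a prior count of 2, and lengths are unions of annotated exons.

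Members and gene lists were chosen with earlier results of these data known. All members were named, and of each list the 4 genes with the smallest p for LPS in WT cells. Deviations from group means over 11961 genes correlated between same-numbered unstimulated and LPS libraries of a genotype with r from 0.139 to 0.454, so the number was taken to mark the line, which the labels do not state. Libraries of a group differed by more than sampling noise, so none is a copy. Alternatives were DESeq2 1.42.0, limma-voom with limma 3.58.1, other normalizations and filters, an unadjusted p, the replicate block, offsets for length and GC content, an other-strand term, other sets of libraries and each library left out. The other-strand term with the block, leaving out the 3 libraries, and the test of shares over lines were added after the data were seen. Leaving out the 3 libraries keeps only line 3 of unstimulated WT cells, so only effect sizes are given for it.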

Additional observations from a re-analysis of the deposited data

How the results depend on the processing

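Each result was recomputed under the alternatives listed in the methods. Of the values for single genes, gene lists and orders, 1408 kept their direction and their side of the threshold (counts stayed within 1.5 times), while 77 moved, 28 lost and 36 gained a call and 37 changed sign. Of the counts and shares that answer a comparison 427 stayed and 69 moved. With the line as the unit the exact p for the share of Itgal was 0.0312. No direction changed among called members, apart from Itgb1 in WT cells. For every move below without a cause named, the cause was not tested. The other-strand term was not run for the genotypes after LPS, where no library had such counts.

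Members called lower after LPS, 0 in either genotype, became 1 in WT cells (Itgam) with length and GC offsets plus the block, with the other-strand term and with that term plus the block. They became 2 with upper-quartile normalization (Itgam and Itgb2). Without the 3 other-strand libraries the log2 change of Itgam in WT cells was -0.69. In ACAT1 KO cells the count became 1 with the other-strand term, with that term plus the block (Itgam) and with upper-quartile normalization (Itgb2).

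Unstimulated, the 314 genes called between genotypes became 1721 with DESeq2, 1353 when all 12 libraries shared a fit, 475 with at least 10 counts in every library, 664 with the other-strand term, 1057 with that term plus the replicate block and 3232 at an unadjusted p under 0.05. Of the 9 members tested, 2 were then higher and 2 lower with DESeq2, 1 higher with the shared fit, with the stricter filter and with the other-strand term, 1 higher and 2 lower with that term plus the block, and 2 higher and 2 lower unadjusted. After LPS the 2481 genes called became 5154 unadjusted, and the 1 member higher became 2 with DESeq2, 2 unadjusted and 0 with the shared fit.

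The 31 genes called by the interaction became 334 with DESeq2, 296 with length and GC offsets plus the block, 11 with limma-voom, 69 with the other-strand term, 457 with that term plus the block, 288 with the block and 1475 unadjusted. With upper-quartile normalization the split of 8 higher and 23 lower became 10 and 13. The 0 members lower became 1 with the other-strand term plus the block (Icam1) and 3 unadjusted.

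Blocking on the replicate number, which pairs the states of a line, changed no other call of a member than those given with the results. Between genotypes the numbers were not taken to pair libraries, since not every library correlated best with its own number. After LPS, same-numbered WT and ACAT1 KO libraries 1, 2 and 3 gave r of 0.126, 0.173 and -0.108. A batch shared by number was not tested. Unstimulated ACAT1 KO line 1 correlated with WT lines 1, 2 and 3 with r of -0.412, -0.626 and 0.676. ACAT1 KO line 2 gave 0.583, 0.745 and -0.862, and ACAT1 KO line 3 gave -0.547, -0.603 and 0.745. The unstimulated r were positive where both or neither library had more other-strand counts, and negative otherwise. That split is uneven over genotypes and absent after LPS, and its cause was not tested. The block gave 151 genes called unstimulated, or 198 with length and GC offsets.

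Signs reversed for Itgb1 and Itgb2 and, in the interaction, for Itgax and Itgam, all with small reported changes. With the longest transcript as length, 2 neighbours in the order of levels changed places in each group. Itgb2 in WT cells after LPS had log2 changes of -0.00166 with the 6 libraries of the genotype, -0.00195 with the other-strand term plus the block, -0.000170 without the 3 other-strand libraries and -0.18 with upper-quartile normalization (adjusted p = 0.0466), and Itgb1 had -0.00651 with the last. Itgb2 in ACAT1 KO cells had 0.0192 with length and GC offsets and 0.0188 with the block as well. Between genotypes unstimulated, Itgb1 had 0.00465 with length and GC offsets plus the block, 0.00131 with no filter, 0.0313 with the other-strand term and 0.0307 with the block as well, and after LPS -0.0188 in the shared fit. In the interaction, Itgb1 had 0.00831 with DESeq2, 0.00535 with the stricter filter, 0.0131 with length and GC offsets, 0.00851 with the block as well, 0.00838 with relative log expression and 0.0561 with upper-quartile normalization, and Itgax had -0.152 without the 3 other-strand libraries.

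Leaving out 1 library gave 8636 to 9676 genes called for LPS in WT cells, with 6 to 8 members higher and 0 lower, and 8978 to 10224 in ACAT1 KO cells, with 6 to 7 higher and 0 lower. Fewer libraries leave less power. Between genotypes, leaving out 1 library gave 7 to 522 genes unstimulated, with 0 to 1 members higher and 0 to 2 lower. There 314 became 522 without WT line 3, the only unstimulated WT line without more other-strand counts, and 7 to 34 without any other. After LPS it gave 867 to 2245, with 0 to 2 higher and 1 to 2 lower. The interaction had 2 to 41 genes and 0 members. The reversals were of Itgb2 in WT cells (log2 -0.0281 to 0.0807), of Itgb1 between genotypes (-0.0603 to 0.0250 unstimulated, -0.0266 to 0.0256 after LPS) and, in the interaction, of Itgb1 (-0.0424 to 0.0524), Itgax (-0.172 to 0.733) and Itgam (-0.139 to 0.249).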
